A study of Mus musculus with 24 samples.

Results

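The AMPA and NMDA receptor subunits are the 10 genes Gria1, Gria2, Gria3, Gria4, Grin1, Grin2a, Grin2b, Grin2c, Grin2d and Grin3a, chosen by name among 55418 genes of a read count table from the lumbar spinal cord (L4–L6) of 24 mice. All 10 passed the filter on low counts that left 25372 genes for testing. The mice were C57BL/6J, 8 to 10 weeks old at the start. The groups combined a deletion of Chrna7 in myeloid cells (Chrna7-cKO), set against wild-type mice, with paclitaxel, set against its vehicle, in males and in females, with 3 mice in each of the 8 groups. Paclitaxel, a chemotherapy drug that causes painful neuropathy, was given at 1 mg/kg in 4 injections every other day. The vehicle was Kolliphor, ethanol and water, and cords were collected at day 7, counted from injection 1. The Cre driver of the deletion, and the alleles that the wild-type mice carry, are not given in the sources used here. The cord holds many cell types, and by its label the deletion is confined to myeloid cells. The series asked how the α7 nicotinic acetylcholine receptor of myeloid cells bears on chronic pain.

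Glutamate is the main excitatory transmitter between primary sensory neurons and the dorsal horn of the spinal cord. AMPA receptors are tetramers of the Gria1 to Gria4 products and carry the fast component of that transmission. NMDA receptors hold the obligatory Grin1 product with Grin2 products, or with Grin3a, and need a co-agonist and depolarisation to pass current. Calcium entry through them starts the strengthening of spinal synapses known as central sensitisation, for which both families are best known in pain research.

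Library totals ran from 88812295 to 112158154 counted reads (median 94343662). Chrna7, the deleted gene, averaged 12.6 ± 1.61 CPM (counts scaled to the library total) in 12 knockout cords and 13.6 ± 1.79 CPM in 11 wild-type cords (SD), with overlapping ranges, so that whole-cord RNA does not check the genotype labels. The library labelled wild-type female paclitaxel replicate 3 stood apart from the other 23. Its 14 markers of dorsal root ganglion neurons were all above every other library, with a summed level of 5967 CPM against 128 to 186 CPM, and its 10 astrocyte markers were all below every other library, with 506 CPM against 7727 to 8888 CPM. It is called the ganglion-like library here, and its values are given apart from those of the 23 cords. The 12 pan-neuronal markers summed to 7760 to 9994 CPM in the 23 cords.

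The genes lie on 9 chromosomes of the mouse genome (GRCm38), 2 of them on chromosome 11. Gria1 occupies chr11:57011387-57330244 on the plus strand, Gria2 chr3:80681450-80802835 on the minus strand, Gria3 chrX:41400854-41678601 on the plus strand and Gria4 chr9:4417896-4796234 on the minus strand. Grin1 occupies chr2:25291181-25319187 on the minus strand, where the antisense gene Grin1os overlaps 13.5% of its exonic bases. Grin2a lies at chr16:9567898-9995560, Grin2b at chr6:135713233-136173511, Grin2c at chr11:115249169-115267243, Grin2d at chr7:45831883-45878378 and Grin3a at chr4:49661611-49845744, all on the minus strand. Gm45441 overlaps 9.66% of the exonic bases of Grin2d. Reads from such overlaps cannot be told apart by strand here, and reads that matched both genes were not counted.

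The pore of the AMPA receptor is where the 4 Gria genes differ in calcium passage, so the coding sequence around that position is shown first. In each gene the 30 bases below surround a glutamine codon at the same place of the pore, in capitals. In Gria2 RNA editing changes this codon to one for arginine in nearly all brain transcripts, which makes receptors that hold the Gria2 product nearly impermeable to calcium. Sequences were read 5′ to 3′ on the coding strand from GENCODE transcripts of GRCm38.
Gria1 (chr11:57243082-57243111, plus strand, exon 11, codon 600): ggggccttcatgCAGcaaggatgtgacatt
Gria2 (chr3:80706896-80706925, minus strand, exon 11, codon 607): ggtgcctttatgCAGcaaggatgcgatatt
Gria3 (chrX:41610253-41610282, plus strand, exon 11, codon 612): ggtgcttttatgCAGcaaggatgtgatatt
Gria4 (chr9:4464122-4464151, minus strand, exon 12, codon 608): ggtgcctttatgCAAcaaggatgtgacatt

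Gria2 and Gria3 share 28 of these 30 bases, and Gria1 shares 26 with each of them. The aligned codons of Gria1, Gria3 and Gria4 are not known as editing sites. Counts per gene hold no letters, so the edited fraction of Gria2 was not measured. Across both families, the longest run of codons that encodes the same amino acids in all 10 genes spans 21 bases. It is shown because it joins the 10 genes as 1 family, within the motif of the third membrane segment that forms the channel gate. Capitals mark the 13 bases that are identical in all 10 genes.
Gria1 (chr11:57283574-57283594, plus strand): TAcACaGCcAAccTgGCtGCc
Gria2 (chr3:80702572-80702592, minus strand): TAcACgGCtAActTaGCtGCc
Gria3 (chrX:41620861-41620881, plus strand): TAcACtGCaAAccTtGCtGCt
Gria4 (chr9:4462020-4462040, minus strand): TAcACtGCtAAtcTgGCtGCa
Grin1 (chr2:25297202-25297222, minus strand): TAcACtGCcAAccTgGCaGCc
Grin2a (chr16:9653450-9653470, minus strand): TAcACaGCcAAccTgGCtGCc
Grin2b (chr6:135772247-135772267, minus strand): TAcACtGCcAActTaGCcGCc
Grin2c (chr11:115253752-115253772, minus strand): TAcACgGCcAAtcTgGCaGCc
Grin2d (chr7:45854282-45854302, minus strand): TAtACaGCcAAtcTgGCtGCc
Grin3a (chr4:49770473-49770493, minus strand): TAcACaGCgAActTgGCtGCt

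Gria1 and Grin2a are letter for letter the same here, although they belong to different families. All sequences here came from a single GENCODE transcript per gene. Between these transcripts the longest exact run of bases shared by any 2 members was 37, between Gria3 and Gria4. Longer stretches of these transcripts therefore tell the members apart, and other transcripts were not compared. The coding sequences are of unequal length, with 883 to 907 codons in the Gria genes, 938 in Grin1, 1239 to 1482 in the Grin2 genes and 1115 in Grin3a.

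Levels were compared between genes only per length, as RPKM, in which the count is divided by the library total and by exonic length. In the 23 cords the 4 AMPA subunits and Grin1 stood above the other NMDA subunits. Gria4, an AMPA subunit with rapid kinetics, was highest with 41.7 ± 1.57 RPKM (SD, n = 23; 38.2 to 43.8 RPKM) and did not overlap with any other member. Gria1, whose product is moved to synapses during potentiation, followed with 27.4 ± 2.12 RPKM. Gria2, which limits calcium entry, had 20.6 ± 1.83 RPKM and Gria3 18.9 ± 1.09 RPKM. Gria1 was above Gria2 in 23 of 23 cords, although their ranges over cords overlapped, and Gria2 was above Gria3 in 21 of 23 cords.

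Grin1, the subunit that every NMDA receptor needs, had 13.98 ± 1.37 RPKM (12.2 to 17.2 RPKM) and was above Grin3a in every cord with no overlap. Grin3a, which lowers calcium permeability, had 5.53 ± 0.495 RPKM. The next 3 lay close together, Grin2c at 4.42 ± 0.491 RPKM, Grin2d at 4.26 ± 0.426 RPKM and Grin2a at 4.10 ± 0.270 RPKM. Grin2c was above Grin2d in 14 of 23 cords and Grin2d above Grin2a in 12 of 23, so that the order of these 3 did not exceed the spread between cords. Grin2b, with 2.96 ± 0.312 RPKM, was below Grin2a in all 23 cords. RPKM here divides by all annotated exonic bases, which run from 5037 in Grin2c to 24842 in Grin2b. On CPM, which is not divided by length, Gria2 had the highest mean with 320.6 CPM and Grin2a and Grin2b had 73.6 and 73.5 CPM. How much of the annotated exons the cord uses was not tested.

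**Figure D1:**
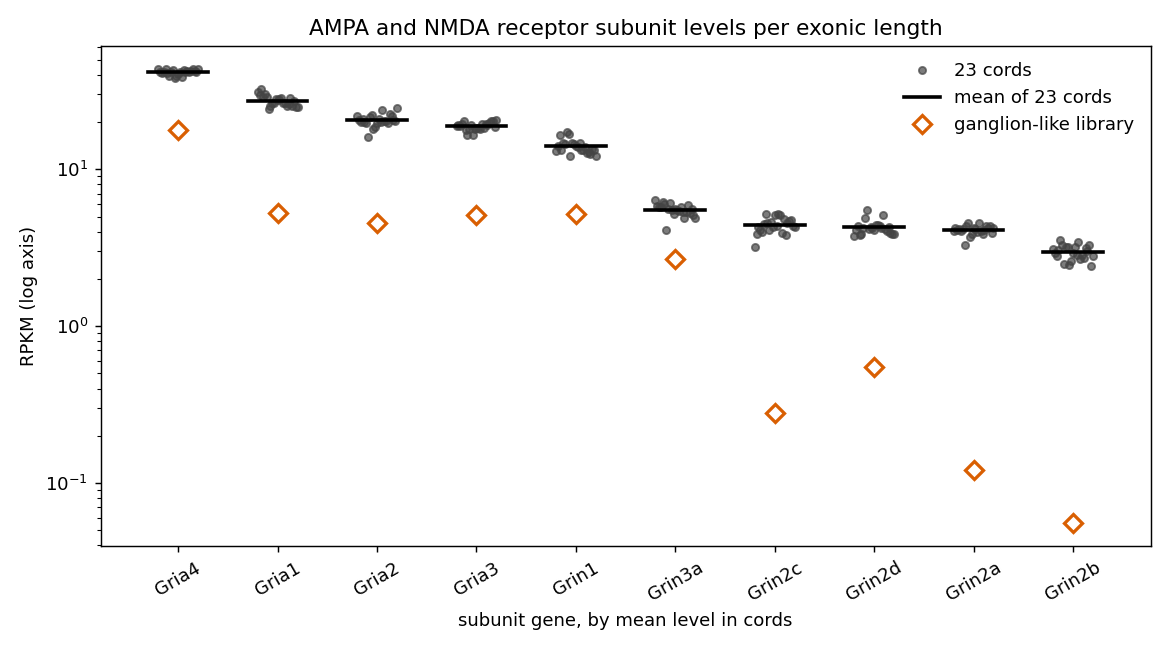
Level of each subunit in RPKM on a log axis, with 1 point per cord (23 cords), a line at their mean and a diamond for the ganglion-like library. The Gria subunits and Grin1 lie above the other members, with Gria4 at 41.7 RPKM and Grin2b at 2.96 RPKM, and the diamond lies below the cords for every subunit.

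The members varied unequally between mice of 1 group. Gria4 had the smallest spread, with an SD of 0.04 on the log2 CPM scale within groups, lower than in all but 2.99% of the 7799 tested genes of similar mean level (22.2 to 320.6 CPM). Grin2c had 0.16, at percentile 96.5 of those genes, and Grin2d had 0.14, at percentile 95.3. Both have low counts among the members, and Grin2c still had 1529 to 2477 reads in each cord. The median of the similar genes was 0.07.

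The first question of the design was what paclitaxel did. None of the 10 members passed the test. With both genotypes together, edgeR's quasi-likelihood test with Benjamini-Hochberg adjustment over all tested genes called 0 of 10 members, against 0.0197% of all genes tested. At an unadjusted p under 0.05 there were 4 of 10 members, against 10.2% of all genes, and DESeq2 and limma voom also called 0 members. These 4 were Grin2b, Gria4, Gria3 and Gria2, all lower with paclitaxel by 0.10, 0.05, 0.06 and 0.07 on the log2 scale. Their smallest adjusted p was 0.434. The 95% intervals of all 10 members lay between 0.876-fold and 1.15-fold. In bulk tissue, fewer cells of a type and less RNA per cell cannot be told apart.

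Gria2, which sets the calcium permeability of AMPA receptors, had 279, 310.1 and 321 CPM (lowest, median and highest) in the 6 Chrna7-cKO paclitaxel cords and 305, 329 and 383 CPM in the 6 Chrna7-cKO vehicle cords. In wild-type mice it had 309, 248 and 289 CPM in the 3 paclitaxel males and 372 and 351 CPM in the 2 paclitaxel females, against 313, 322 and 345 CPM (lowest, median and highest) in the 6 vehicle cords. The paclitaxel and vehicle ranges overlapped in both genotypes, as they did for all 10 members, while 0.41% of all genes did not overlap in knockout and 0.481% in wild-type mice. The widest range was that of the wild-type paclitaxel cords, where the males were low and the females high. In knockout mice the difference was −0.12 ± 0.05 (log2, SE; unadjusted p = 0.0231, adjusted p = 0.355 by edgeR), which did not pass.

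Grin2b, whose subunit gives NMDA receptors slow currents and sensitivity to ifenprodil, had 60.1, 69.3 and 81.7 CPM in the Chrna7-cKO paclitaxel cords and 66.4, 73.8 and 79.2 CPM in the Chrna7-cKO vehicle cords (lowest, median and highest). In wild-type mice it had 69.7, 61.5 and 64.8 CPM in the paclitaxel males and 85.4 and 78.3 CPM in the paclitaxel females, against 70.9, 79.0 and 88.6 CPM in the vehicle cords. The paclitaxel and vehicle ranges overlapped in both genotypes.

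Grin1 had 123, 138 and 143 CPM in the Chrna7-cKO paclitaxel cords and 119, 129 and 164 CPM in the Chrna7-cKO vehicle cords. In wild-type mice it had 160.1, 167 and 141 CPM in the paclitaxel males and 129.6 and 125 CPM in the paclitaxel females, against 118, 133 and 142 CPM in the vehicle cords. Here too the ranges of paclitaxel and vehicle cords overlapped in both genotypes.

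The other members are given by their means. Gria1 averaged 165.7 ± 11.2 CPM in Chrna7-cKO paclitaxel cords and 159.7 ± 9.61 CPM in Chrna7-cKO vehicle cords (SD, n = 6 each), and 169 ± 18.3 CPM in wild-type paclitaxel cords (n = 5) and 169 ± 12.98 CPM in wild-type vehicle cords (n = 6). For Gria3 the knockout means were 179.8 ± 9.41 CPM with paclitaxel and 189.6 ± 11.6 CPM with vehicle, and the wild-type means 183 ± 12.1 CPM with paclitaxel and 192 ± 7.50 CPM with vehicle. For Gria4 the knockout means were 256 ± 10.3 CPM with paclitaxel and 266 ± 7.52 CPM with vehicle, and the wild-type means 259 ± 11.1 CPM with paclitaxel and 269 ± 5.57 CPM with vehicle. In all 3 genes the ranges of paclitaxel and vehicle cords overlapped in each genotype.

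Among the NMDA subunits that set channel kinetics, Grin2a ranged from 58.9 to 81.3 CPM over the 11 paclitaxel cords and from 69.6 to 80.9 CPM over the 12 vehicle cords. Grin2c, which in brain is found mostly in the cerebellum, ranged from 19.3 to 26.2 CPM with paclitaxel and from 16.1 to 25.7 CPM with vehicle. For Grin2d, known from interneurons, the range was 25.8 to 32.5 CPM with paclitaxel and 24.9 to 36.8 CPM with vehicle. For Grin3a it was 50.6 to 73.9 CPM with paclitaxel, and the vehicle cords reached 78.7 CPM. Each paclitaxel range overlapped its vehicle range.

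**Figure D2:**
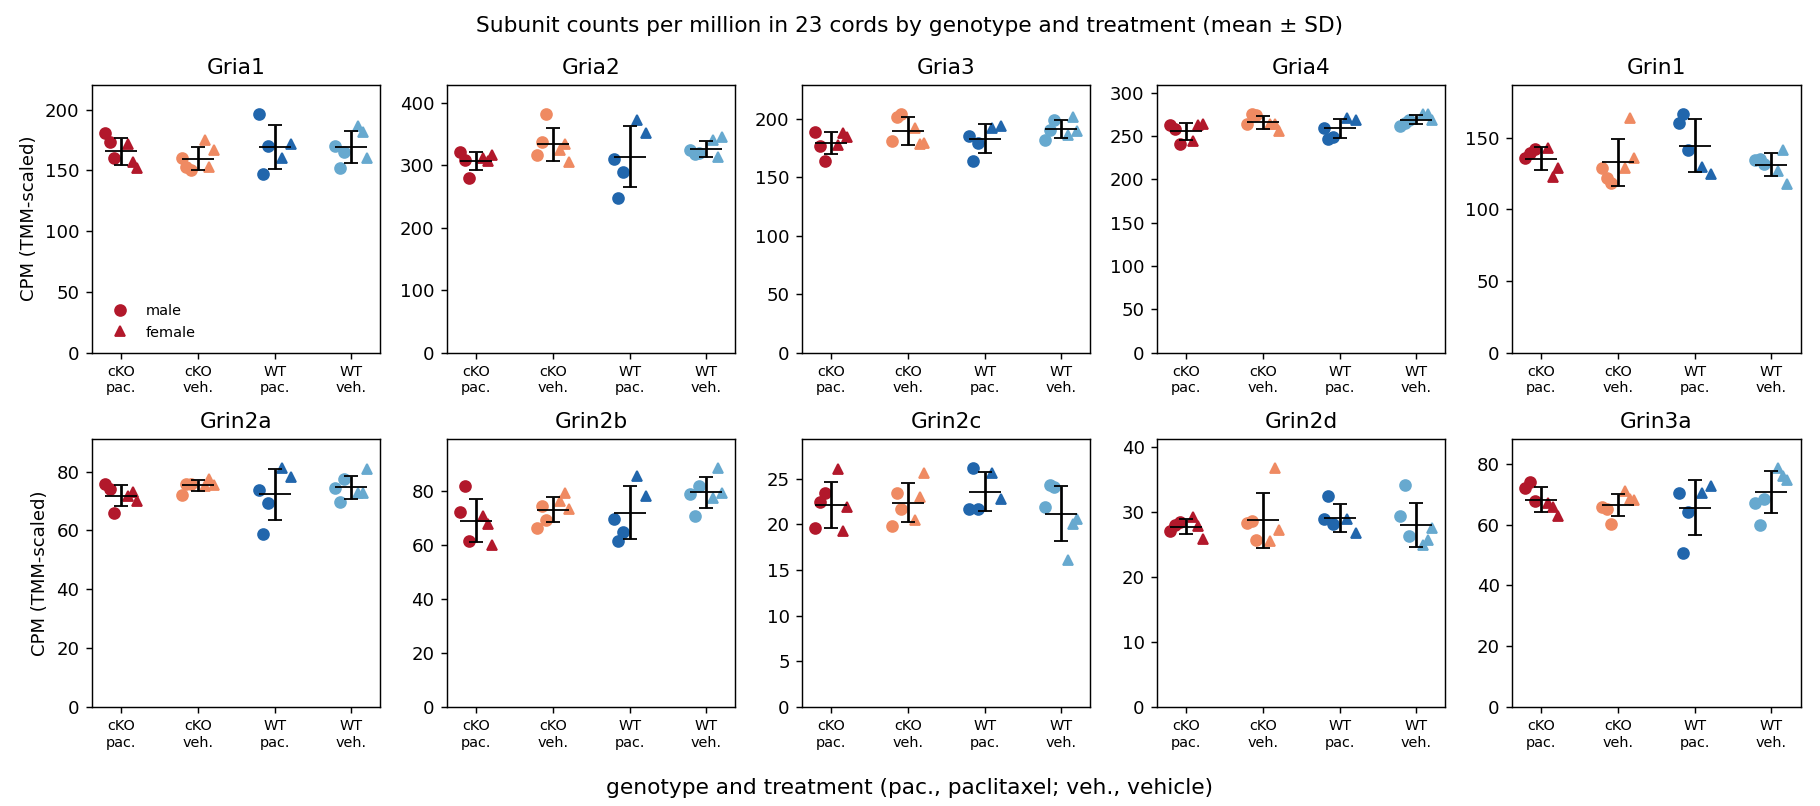
CPM of the 10 subunits in each cord, from left to right Chrna7-cKO paclitaxel, Chrna7-cKO vehicle, wild-type paclitaxel and wild-type vehicle, with males as circles, females as triangles and bars for the mean ± SD. The groups overlap in every panel, and in wild-type paclitaxel cords the Gria2 males (248 to 309 CPM) lie below the females (351 and 372 CPM).

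Each genotype was then taken alone. In wild-type mice 0 of 10 members passed, against 0% of all genes tested, with 0 at an unadjusted p under 0.05 against 7.97% of all genes and 0 by DESeq2 and by limma voom. In knockout mice 0 of 10 passed, against 0.0236% of all genes, with 1 at an unadjusted p under 0.05 (Gria2) against 11.3% of all genes, and 0 by both other tools. The treatment effect in knockout mice minus that in wild-type mice, the interaction of genotype and treatment, passed for 0 of 10 members and for 0% of all genes, with 0 members at an unadjusted p under 0.05 against 8.41% of all genes, and 0 by both other tools. Its 95% intervals ran from 0.742-fold to 1.22-fold over the members, with 2 or 3 mice a group. A difference in response between genotypes that lies within a member's own interval is compatible with these data. Grin2c had the largest estimate, −0.19 ± 0.12 (log2, SE).

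The myeloid deletion of Chrna7 itself went with no called change in the subunits. Knockout against wild-type over both treatments called 0 of 10 members, against 0.0118% of all genes. At an unadjusted p under 0.05 there was 1 member, Grin2b, against 3.36% of all genes, and DESeq2 and limma voom called 0. Its adjusted p by edgeR was 1.00. Grin2b averaged 71.1 ± 6.56 CPM in 12 knockout cords and 76.1 ± 8.40 CPM in 11 wild-type cords (SD), a log2 difference of −0.10. The fitted difference was below 0 for 10 of 10 members, with a median of −0.02, beside 49.5% of all genes above 0, and the 95% intervals ran from 0.875-fold to 1.08-fold. Each of the 10 changed sign under at least 1 of 33 alternative fits, in 35 of 330 values. Within vehicle mice 0 of 10 members passed, against 0.00788% of all genes, and 5 of 10 were below 0. Within paclitaxel mice 0 of 10 passed, against 0.00394% of all genes, and 9 of 10 were below 0. There, too, each of the 10 changed sign under at least 1 of 34 alternative fits. In both, 0 members had an unadjusted p under 0.05, against 5.2% and 6.18% of all genes, and DESeq2 and limma voom called 0.

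The sexes were compared over all groups. In 12 males against 11 females 0 of 10 members passed, against 0.918% of all genes, with 4 at an unadjusted p under 0.05 against 13.2% of all genes. DESeq2 and limma voom called 0. Grin3a came closest, with 65.5 ± 6.31 CPM in males and 70.6 ± 4.74 CPM in females (SD), a log2 difference of −0.11 ± 0.04 (SE; adjusted p = 0.189 by edgeR). It was called without the filter on low counts (adjusted p = 0.0457) and without wild-type male paclitaxel replicate 1 (−0.14, adjusted p = 0.0401).

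The interaction of sex and treatment, the paclitaxel effect in males minus that in females, passed for 1 of 10 members, against 4.96% of all genes, 2.72% of them above 0. At an unadjusted p under 0.05 there were 4 members, against 20.3% of all genes. This was Grin1, with 0.27 ± 0.08 (log2, SE; adjusted p = 0.0479 by edgeR). Grin1 had 136, 139.7 and 142 CPM in the Chrna7-cKO paclitaxel males and 160.1, 167 and 141 CPM in the wild-type paclitaxel males, against 129, 122 and 119 CPM in the Chrna7-cKO vehicle males and 134, 135 and 131 CPM in the wild-type vehicle males. Every paclitaxel male was above every vehicle male. In females Grin1 had 143, 123, 129, 129.6 and 125 CPM in the 5 paclitaxel cords, against 118, 132 and 164 CPM (lowest, median and highest) in the 6 vehicle cords, and these overlapped. The call did not hold with limma voom (0 of 10 members), without TMM scaling, with 24 libraries, or without any 1 of 18 libraries, for which the adjusted p ran from 0.0551 to 0.115. It held without Chrna7-cKO female vehicle replicate 1, wild-type female vehicle replicate 3, wild-type male paclitaxel replicate 3, Chrna7-cKO female paclitaxel replicate 1 or Chrna7-cKO male vehicle replicate 1. The value was between 0.21 and 0.30 without any 1 library. Gria2 had an interaction of −0.23 (adjusted p = 0.0596 by edgeR), which passed by DESeq2 (adjusted p = 0.0478), without the filter on low counts (0.0100) and with the replicate block (0.0454). Leaving out Chrna7-cKO male vehicle replicate 1 (0.0216), wild-type female vehicle replicate 3 (0.0459) or wild-type male paclitaxel replicate 1 (0.0356) also gave a call. Over the other settings the value of Gria2 lay between −0.24 and −0.0032 (adjusted p from 0.0100 to 0.999), nearest to 0 with 24 libraries.

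Paclitaxel against vehicle was then fitted within each sex, a comparison added after the interaction had been seen. Every paclitaxel male has a lower library number than every vehicle male, and in females the order is reversed. Treatment within a sex therefore cannot be told apart from the set of library numbers. In males 3 of 10 members passed, against 6.69% of all genes, with 1 higher (3.07% of all genes) and 2 lower (3.62% of all genes). Grin1 was higher, with 148 ± 12.7 CPM in paclitaxel males and 128 ± 6.70 CPM in vehicle males (SD, n = 6 each), a log2 difference of 0.20 ± 0.05 (SE; adjusted p = 0.0272 by edgeR). Gria2 was lower, with 293 ± 26.6 CPM in paclitaxel males and 333 ± 25.5 CPM in vehicle males (−0.19 ± 0.05, adjusted p = 0.0210). Gria3, the X-linked AMPA subunit, was lower with 176 ± 10.5 CPM in paclitaxel males and 193 ± 10.2 CPM in vehicle males (−0.13 ± 0.04, adjusted p = 0.0499). At an unadjusted p under 0.05 there were 4 members, against 20.9% of all genes. DESeq2 and limma voom also called 3. Of the 3, Grin1 alone had no overlap between the male groups, as did 2.34% of all genes.

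The values of Gria2 in males show how narrow the difference was. It had 321, 309 and 279 CPM in the Chrna7-cKO paclitaxel males and 309, 248 and 289 CPM in the wild-type paclitaxel males, against 316, 338 and 383 CPM in the Chrna7-cKO vehicle males and 324, 318 and 320.2 CPM in the wild-type vehicle males. Only the highest paclitaxel male reached into the vehicle range. Gria3 had 164, 178 and 189 CPM (lowest, median and highest) in paclitaxel males and 181, 195 and 205 CPM in vehicle males, with overlap. Gria4 (−0.08, adjusted p = 0.116) and Gria1 (0.11, adjusted p = 0.269) did not pass. Leaving out 1 library ended the call of Grin1 for 9 of the 12 male cords, all but Chrna7-cKO male paclitaxel replicate 1, wild-type male paclitaxel replicate 3 and Chrna7-cKO male vehicle replicate 1 (adjusted p from 0.0506 to 0.0925). It ended that of Gria2 for wild-type male paclitaxel replicate 2 (adjusted p = 0.0542), Chrna7-cKO male paclitaxel replicate 3 (0.0784) and Chrna7-cKO male vehicle replicate 3 (0.0918). The call of Gria3 ended without any 1 of 18 cords (adjusted p from 0.0505 to 0.153), all but replicates 1 of the Chrna7-cKO male paclitaxel, wild-type male paclitaxel and Chrna7-cKO male vehicle groups, wild-type male paclitaxel replicate 3 and Chrna7-cKO female vehicle replicate 2.

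In females 0 of 10 members passed, against 0.00394% of all genes. At an unadjusted p under 0.05 there were 0 members, against 9.37% of all genes, and DESeq2 and limma voom called 0. The member nearest to the threshold was Grin2c (0.16, adjusted p = 0.583 by edgeR). The 95% intervals of the members in females ran from 0.852-fold to 1.26-fold.

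**Figure D3:**
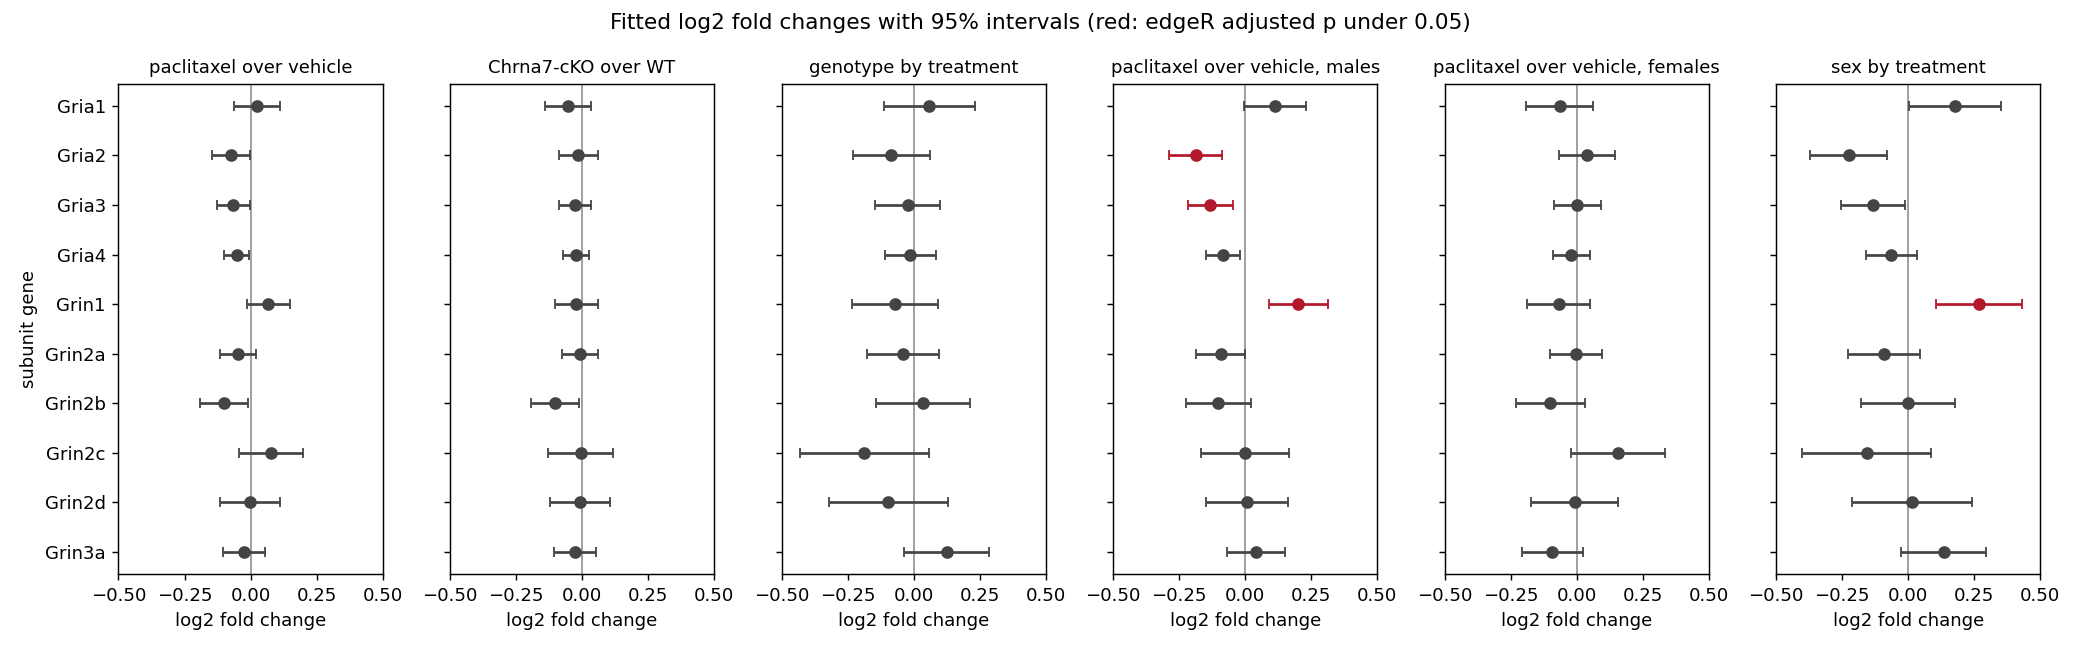
Fitted log2 fold change of each subunit with its 95% interval in 6 comparisons, the first-named group over the second, with red for an adjusted p under 0.05. Red marks appear for Grin1, Gria2 and Gria3 in males and for Grin1 in the sex by treatment interaction, and for no member in the other panels.

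The GC content of the exons moved with these male differences. Gria2 and Gria3, with 36.8% and 39.8% GC, lie in the lowest of 5 equal GC classes of the genes with a mean of at least 1 CPM, and Grin1, with 59.4%, lies in the highest class with Grin2c (62.1%) and Grin2d (65.0%). In paclitaxel against vehicle males the median log2 difference of all genes ran from −0.09 in the lowest GC class to 0.08 in the highest, and in the sex by treatment interaction from −0.13 to 0.10. The difference between the highest and lowest class in single libraries was 0.01 to 0.22 in paclitaxel males (median 0.12) and −0.23 to 0.01 in vehicle males (median −0.02). With a correction for GC content, added after the data were seen, 0 of 10 members passed in males, and Grin1 had 0.11 (adjusted p = 0.149 by edgeR), Gria2 −0.06 (adjusted p = 0.421) and Gria3 −0.03 (adjusted p = 0.771). The interaction of Grin1 was then 0.17 (adjusted p = 0.123). The signs were the same as before the correction.

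**Figure D4:**
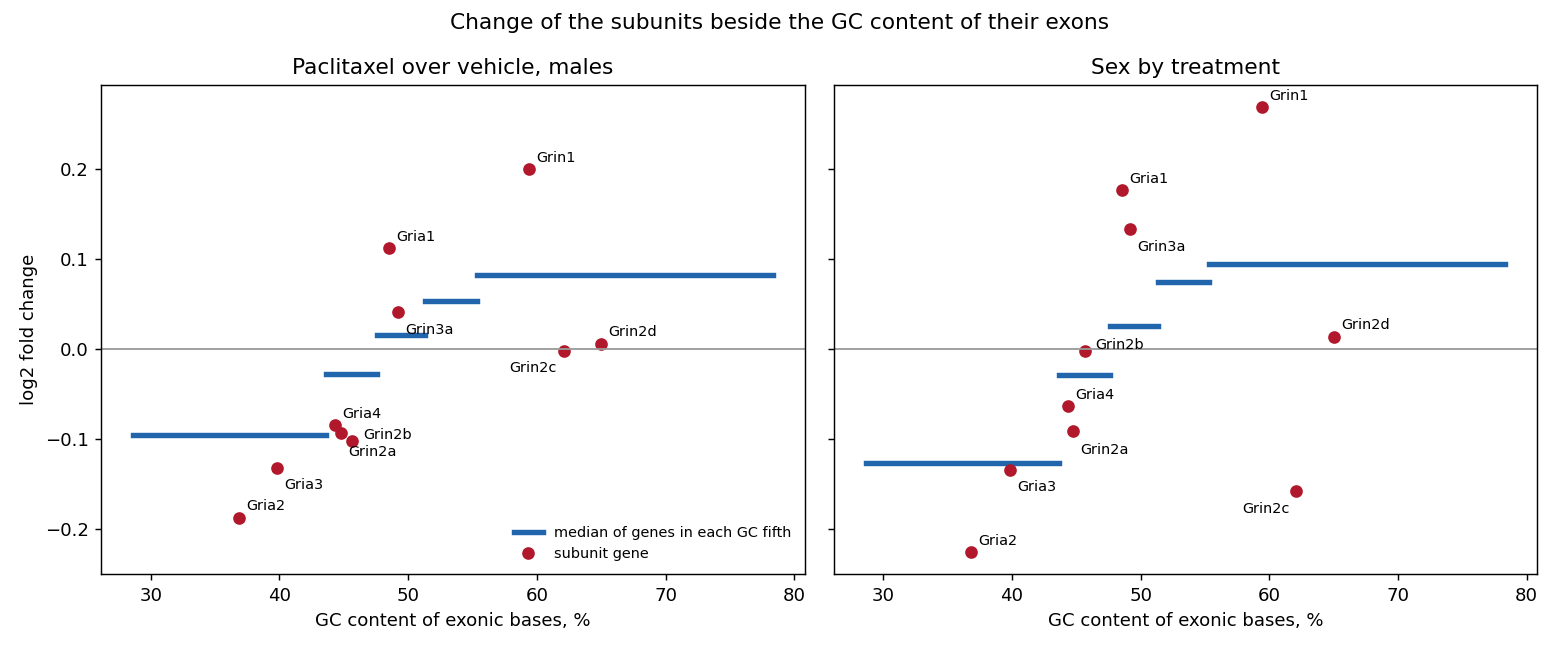
Fitted log2 fold change of the 10 subunits against the GC content of their exons in percent, for paclitaxel against vehicle in males and for the sex by treatment interaction, with the median of all genes in each of 5 GC classes. In males the medians go from −0.09 in the lowest to 0.08 in the highest class, with Gria2 (−0.19) and Gria3 (−0.13) below 0 at low GC and Grin1 (0.20) above 0 at high GC.

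Markers of neurons moved with the same comparison. Of 12 pan-neuronal markers, 5 rose in paclitaxel males (Syn1, Syp, Uchl1, Rbfox3 and Celf4, by 0.15 to 0.27 on the log2 scale) and 11 of 12 were above 0. Of all genes, 3.07% were called higher and 3.62% lower in males, and 51.4% were above 0. Their summed level was 8664 to 9994 CPM in paclitaxel males and 7760 to 8943 CPM in vehicle males, and 8069.9 to 9060 CPM in paclitaxel females and 8231 to 9025 CPM in vehicle females. Among the other lists, 1 of 10 astrocyte markers (Aldh1l1), 1 of 10 myelin markers (Mag) and 1 of 10 markers of oligodendrocyte precursors (Cspg4) rose in paclitaxel males, and 1 of the last list (Lhfpl3) fell. In the sex by treatment interaction, 3 of 12 pan-neuronal markers (Syn1 0.41, Rbfox3 0.22 and Celf4 0.20), 3 of 10 myelin markers (Cnp 0.34, Mag 0.28 and Cldn11 0.22) and 1 of 10 astrocyte markers (Aldh1l1 0.39) passed, all above 0. Of all genes 4.96% passed there, 2.72% above 0. With the pan-neuronal level as a covariate 0 of 10 members passed in males and in the interaction, where Grin1 had 0.10 in males and 0.15 in the interaction. The part of cell makeup, of the GC shift and of the set of library numbers in the male differences was not tested.

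Across the 23 cords the members stood in different relations to the pan-neuronal level, over 10 relations tested by permutation with Benjamini-Hochberg adjustment. Gria2 was lower where it was high (r = −0.76, rho = −0.68, p = 5.0e-05, adjusted p = 5e-04) and Grin1 was higher (r = 0.65, rho = 0.58, adjusted p = 0.0035). Grin2a (r = −0.60, rho = −0.59), Gria3 (r = −0.52, rho = −0.44) and Gria4 (r = −0.51, rho = −0.50) passed for Pearson's r, with adjusted permutation p = 0.0114, 0.0246 and 0.0246. Without the 2 cords farthest from the median level, r was −0.54 for Gria2, 0.47 for Grin1, −0.42 for Grin2a, −0.23 for Gria3 and −0.35 for Gria4, and none of these 5 passed (adjusted permutation p = 0.0565 for Gria2 and 0.104 or more for the others). The 1 of 10 relations that passed was that of Gria1, with r = 0.66 over 21 cords (adjusted permutation p = 0.0120), against r = 0.41 over 23 cords (adjusted permutation p = 0.0861). On the deviations from group means 0 passed (Gria2 r = −0.47, adjusted permutation p = 0.246). The 5 relations that passed over 23 cords thus did not pass without those 2 cords.

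Subunit shares describe the makeup of each family, as the RPKM of 1 subunit over the sum of its family. The AMPA family in the 23 cords was 38.4 ± 0.913% Gria4, 25.3 ± 1.69% Gria1, 18.96 ± 1.13% Gria2 and 17.4 ± 0.546% Gria3 (SD). The Grin2 family was nearly even, with 28.03 ± 2.33% Grin2c, 27.04 ± 2.00% Grin2d, 26.1 ± 1.801% Grin2a and 18.8 ± 1.79% Grin2b. On raw counts, not divided by length, the order differed, with Gria2 first among the AMPA subunits at 34.2% and Grin2a and Grin2b at 37.3% and 37.1% of the Grin2 reads.

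Exact permutation tests, with labels rearranged within the factors not compared (two-sided, 8 shares in each of 5 comparisons, adjusted over all 40), passed for 0 shares. Within a genotype only 200 (wild-type) or 400 (knockout) rearrangements exist, so that a share alone could not have passed there. For paclitaxel against vehicle in both genotypes, Grin2b alone had an unadjusted p under 0.05, with 18.1 ± 1.55% in paclitaxel cords and 19.4 ± 1.79% in vehicle cords (exact permutation p = 0.0468, adjusted p = 0.554). In wild-type mice it had 18.1 ± 1.71% with paclitaxel and 20.4 ± 2.08% with vehicle (exact permutation p = 0.04, adjusted p = 0.554). In knockout mice, for knockout against wild-type and for males against females, 0 shares had an unadjusted p under 0.05, with smallest exact permutation p of 0.08, 0.123 and 0.0828.

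Within males, added later with 8 shares in each sex and adjusted over 16, Gria1 made up 26.9 ± 1.16% of the AMPA family in paclitaxel cords and 23.9 ± 1.47% in vehicle cords (exact permutation p = 0.01, adjusted p = 0.08). Gria2 made up 17.9 ± 0.706% in paclitaxel males and 19.5 ± 1.09% in vehicle males (exact permutation p = 0.005, the smallest this design can give, adjusted p = 0.08). Gria3 made up 17.01 ± 0.350% in paclitaxel males and 17.8 ± 0.629% in vehicle males (exact permutation p = 0.04, adjusted p = 0.213). None of the 8 passed the adjustment in males, and none in females, where the smallest exact permutation p was 0.06. A share alone could not have passed in either sex. The smallest possible exact permutation p would for such a share become at least 0.08 after adjustment over 16. The largest difference between the male means was 3.00 percentage points, for Gria1.

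**Figure D5:**
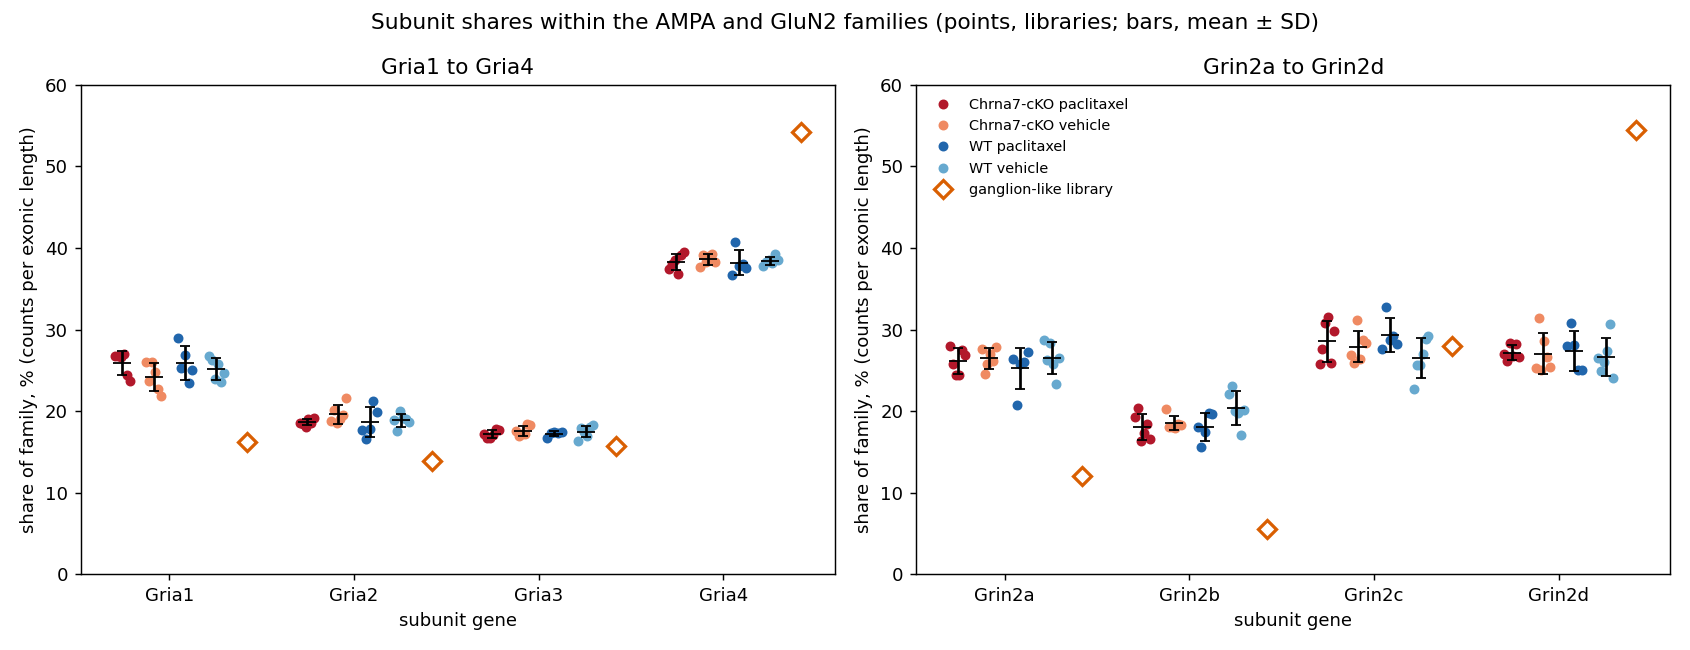
Share of each subunit in its family in percent of summed RPKM by group, with 1 point per cord and a separate mark for the ganglion-like library. Gria4 holds 36.7 to 40.7% of the AMPA family in every cord, and 54.3% in the ganglion-like library.

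Ratios were taken between subunits with different roles. Gria2 over the sum of the other Gria subunits, which bears on the calcium permeability of the pool, was 0.234 ± 0.0173 in the 23 cords (SD, RPKM over RPKM). Grin2a over Grin2b was 1.40 ± 0.103. Both ratios rest on division by all annotated exonic bases. On raw counts Gria2 held 34.2% of the AMPA reads, and Grin2a and Grin2b held 37.3% and 37.1% of the Grin2 reads. Grin1 over the sum of the Grin2 subunits was 0.890 ± 0.0855, with 0.985 ± 0.0745 in paclitaxel males and 0.833 ± 0.0413 in vehicle males (n = 6 each). The paclitaxel male range of that ratio, 0.895 to 1.09, did not overlap with the vehicle male range, 0.774 to 0.892, by a gap smaller than either SD. This ratio was chosen after the Grin1 difference was known and was not tested. The summed Gria level over Grin1 was 7.85 ± 0.919.

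The genes that handle these receptors were described by 8 lists with 85 genes, of which 84 passed the filter. They hold auxiliary subunits, scaffolds, kinases and phosphatases, editing enzymes, kainate and delta subunits, metabotropic receptors, transporters and co-agonist enzymes, and Grin3b. For paclitaxel in both genotypes and in each, for knockout against wild-type in both treatments and in each, and for their interaction, edgeR called 0 of 84. For paclitaxel in both genotypes 1, Sacm1l, was called by DESeq2 and when wild-type male paclitaxel replicate 1 was left out, 3 were called without the filter on low counts, and leaving out Chrna7-cKO male vehicle replicate 1 gave 2 there and 4 in knockout mice. The smallest adjusted p was 0.126 (both genotypes), for Sacm1l, a phosphatase listed with the AMPA receptor complex. In males against females 3 of 84 passed, against 0.918% of all genes. Dao, which breaks down the co-agonist D-serine, fell to 16.4 ± 1.99 CPM in males, against 20.4 ± 1.97 CPM in females (log2 −0.31, adjusted p = 0.000254 by edgeR). Sacm1l fell by 0.15 (adjusted p = 0.0430), and Src, a tyrosine kinase that raises NMDA currents, rose by 0.12 (adjusted p = 0.0212).

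The sex by treatment interaction passed for 9 of 84 list genes, 8 above 0 and 1 below, against 4.96% of all genes (2.72% above 0). Those above 0 were the kinases Ptk2b (0.51), Camk2b (0.23) and Src (0.18), the auxiliary genes Shisa9 (0.30) and Olfm1 (0.18), Nsf (0.29), which recycles AMPA receptors, the scaffold Dlgap1 (0.21) and the glycine transporter Slc6a9 (0.23). The kainate receptor auxiliary gene Neto2 was below 0 (−0.28). The adjusted p of these 9 ran from 0.0200 to 0.0463 by edgeR.

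In males alone 13 of 84 list genes passed, 7 higher and 6 lower with paclitaxel, against 6.69% of all genes (3.07% higher and 3.62% lower). Higher were Camk2b (0.19), Ptk2b (0.31) and Src (0.12), the auxiliary genes Olfm1 (0.14) and Cacng4 (0.20), Dao (0.25) and the glutamate transporter Slc1a1 (0.15). Lower were the scaffolds Homer1 (−0.27) and Homer2 (−0.25), Sacm1l (−0.26), Neto1 (−0.16) and Neto2 (−0.22), and Slc17a6 (−0.16), the vesicular glutamate transporter of dorsal horn excitatory neurons. None of the editing enzymes or metabotropic receptors passed. Adarb1, the enzyme that edits Gria2, had 302 ± 15.8 CPM in paclitaxel males and 315 ± 9.71 CPM in vehicle males. With the GC correction 3 of 84 list genes passed in males, of which 2 (Camk2b and Homer2) were among the 13, and 3 in the interaction, of which 2 (Ptk2b and Shisa9) were among the 9. With the pan-neuronal covariate, or with 24 libraries, 0 of 84 passed in either. With any 1 library left out the count was 3 to 17 in males, lowest without Chrna7-cKO male vehicle replicate 3, and 0 to 18 in the interaction, lowest without wild-type female paclitaxel replicate 1. Both counts were highest without Chrna7-cKO male vehicle replicate 1. In females 0 of 84 passed, with a smallest adjusted p of 0.332 by edgeR. The limit set by the library numbers holds for these list genes too, within each sex and in the interaction.

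Members also varied together within groups. The correlation of deviations from the group means of log2 CPM over the 23 cords, which share library and depth effects, was highest for Gria1 with Grin3a (r = 0.85), followed by Gria2 with Grin2a (0.78), Gria3 with Gria4 (0.77), Grin2a with Grin3a (0.73) and Grin1 with Grin2d (0.64). It was lowest for Gria1 with Grin2d (−0.49). By the same measure over 15869 genes with a mean of at least 1 CPM, the 3 genes most like each member were Rasgrf1, Astn1 and Arhgap1 for Gria1 (r = 0.93 to 0.94), Xiap, Nrip1 and Zfp62 for Gria2 (0.92 to 0.94), Phf20, Gtf3c3 and Ttc9 for Gria3 (0.87 to 0.89) and Itch, Rragd and Kpna1 for Gria4 (0.90 to 0.93). For Grin1 they were Nrxn2, B4galnt1 and Pcyox1l (0.90 to 0.91), for Grin2a Samd12, Pclo and Kcnq3 (0.90 to 0.92), for Grin2b Helz, Ash1l and Caln1 (0.84 to 0.88) and for Grin3a Nbea, Prickle2 and Cobl (0.94 to 0.96). For Grin2c they were Map7, Shkbp1 and Psmg1 (0.81 to 0.86), and for Grin2d Cox11, Scand1 and Gm42517 (0.88 to 0.90).

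In the ganglion-like library every member was below all 23 cords. Its CPM was scaled by its library total alone, while that of the cords also used TMM factors. The 4 Grin2 genes were lowest relative to cord, with Grin2b at 1.37 CPM (1.87% of the cord median, 130 reads), Grin2a at 2.16 CPM (2.91%), Grin2c at 1.41 CPM (6.46%) and Grin2d at 3.64 CPM (12.98%). The AMPA subunits kept 19.4% (Gria1), 22.2% (Gria2), 27.1% (Gria3) and 42.5% (Gria4) of the cord median. Grin1 kept 37.2% and Grin3a 48.5%. Its makeup differed as well, with Gria4 at 54.3% of the AMPA family, Grin2d at 54.5% of the Grin2 family and a ratio of Grin1 to the summed Grin2 level of 5.13, against at most 40.7%, 31.4% and 1.09 in the cords. This is 1 library, so none of these differences has a replicate check. Of its 12 pan-neuronal markers 6 were above and 4 below all cords, with a summed level of 10528 CPM.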

How the data were processed

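Total RNA of 24 L4–L6 spinal cords was sequenced on an Illumina NovaSeq, per the labels. The deposited values are whole-number counts of reads per gene. The authors aligned reads with STAR (its version: not given in the sources used here), then counted them with featureCounts 1.6.2 on Ensembl release 96 exons of GRCm38 (mm10) by gene name, per the file headers and the submitters' processing notes. No strand option was set, and reads matching several genes or places were not counted.

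Differences were fitted with edgeR 4.0.16 (quasi-likelihood, robust, TMM scaling, filterByExpr) in R 4.3.3 on 23 libraries as contrasts of 8 group means that share 1 estimate of spread, adjusted by Benjamini-Hochberg over 25372 genes, threshold 0.05. The ganglion-like library was left out of the fits. CPM and RPKM of the 23 cords were computed from the counts with TMM library sizes and exonic length. For the ganglion-like library the library total was used alone, with no TMM factor. Shares were tested by exact permutation within the other factors, with SciPy 1.17.1, and correlations with 100000 resamples. DESeq2 1.42.0 and limma 3.58.1 were alternatives. The fit of paclitaxel against vehicle in both genotypes was also run on simulated counts, which held no GC shift and no effect of sex. The comparisons within a sex and the interactions were not simulated. GC content came from GENCODE transcripts and covered all 10 members.

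Members and lists were chosen with earlier results of these data known. Genes are named as members of these lists, and the 3 most like genes by correlation. Each library is a separate mouse. Counting error alone is small at these depths, and the number of mice limits precision.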

Additional observations from a re-analysis of the deposited data

Results flagged for a closer look

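The samples that stood apart from their group were found with Dixon's test at the 95% level over 72 groups of 4 to 10 samples, which chance flags in about 1 in 20 groups. There were 5. Gria2 was lowest in Chrna7-cKO male paclitaxel replicate 3, with 279 CPM, the next of the 6 Chrna7-cKO paclitaxel cords having 307 CPM. Grin2d was highest in Chrna7-cKO female vehicle replicate 2, with 36.8 CPM, the next of its 6 cords having 28.7 CPM. The Gria3 share was lowest in wild-type male paclitaxel replicate 1, at 16.7% against 17.3% in the next of 5 cords. The Grin2a share was lowest in wild-type male paclitaxel replicate 2, at 20.7% against 25.8%. The Grin2b share was highest in Chrna7-cKO female vehicle replicate 1, at 20.3% against 18.5%.

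In the ganglion-like library, outside the comparisons, Gria4 made up 54.3% of the AMPA family and Grin2d 54.5% of the Grin2 family. The highest shares in the cords were 40.7% and 31.4%. In CPM both genes were below every cord. Grin1 passed the interaction of sex and treatment, with 0.27 (log2, adjusted p = 0.0479 by edgeR's interaction test). The call was lost without any 1 of 18 libraries and under several settings given below. This interaction cannot be told apart from the sets of library numbers.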

How the results depend on the processing

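Of 546 counts of members, shares or relations under alternatives, 500 were within 1.5 times the main count. Results were reversed in 0 cases, counting only a change of sign with a call before or after it. Signs also changed where there was no call, in 10 to 40 member values of each comparison, over 3 to 10 members. The counts of 0 for paclitaxel in both genotypes and in each, for knockout against wild-type, for their interaction and for females were 0 under every alternative run. In males against females the count was 1 without the filter on low counts, and 0 to 1 with any 1 library left out. The sex by treatment interaction, 1 member by edgeR, gave 0 with 24 libraries, limma voom, no TMM scaling, the pan-neuronal covariate, GC correction, or GC correction with the replicate block, 2 with DESeq2 or the replicate block, 3 without the filter, and 0 to 2 with any 1 library left out. Grin1 ran from 0.15 to 0.43 over the other settings (adjusted p from 0.000522 to 0.999). Paclitaxel in males, 3 members, gave 0 with 24 libraries, the pan-neuronal covariate, GC correction and GC correction with the replicate block, 1 with only the groups compared, and 0 to 3 with any 1 library left out. The shares in males, 0, gave 2 on raw counts and 0 to 2 without 1 library (2 without wild-type male paclitaxel replicate 2). The relations to the pan-neuronal level, 5, gave 1 (Gria1, not among the 5) without the 2 farthest cords and 0 on deviations from group means. The cause was not tested, save that 24 libraries add the ganglion-like library to its group.

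Deviations of same-numbered cords of different groups had a mean r of 0.02 (77 pairs, lowest −0.31), and those of other numbers −0.01 (154 pairs). The numbers were therefore not taken to pair cords. Even so, 14 of 23 cords were closest to their own number, a hint from the data. Within each group the replicate numbers follow the order of the library numbers, and whether this bears on that hint was not tested. The replicate block gave 2 members in the sex by treatment interaction and 2 in males, where Gria3 missed the threshold (adjusted p = 0.0547 by edgeR), and changed no other count of members called. Depth limits little, since the lowest count of a member in a cord was 1529 reads. With 2 or 3 mice a group, small differences could be missed.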
